A study of Mus musculus with 3 samples.

Results

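Transcripts of 10 genes of the chemokine system were followed through 3 kinds of cultured mouse heart cell. They are 9 chemokine ligands (Cxcl12, Cxcl1, Cxcl5, Cxcl14, Cxcl16, Cx3cl1, Ccl2, Ccl7 and Ccl9) and Ackr3, the receptor that scavenges Cxcl12. The 10 genes were picked by name from a table of 18245 genes, all of them were present, and all passed the filter on low counts in each comparison.

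All cells came from hearts of C57BL/6 mice, and no transgene or mutation was labelled in any of them. Cardiosphere-derived cells (CDC) were grown from explants of peeled ventricular epicardium of 6-week-old mice by way of floating spheres. They were then expanded as adherent, fibroblast-like cells. CDC-EpiC is a clone of epithelial shape. It was lifted out of CDC cultures by cloning cylinder after 2 weeks in 10 µM SB-431542, which blocks the kinase of TGF-beta type I receptors. Primary epicardial cells (pEpiC) were freed by enzyme from dissected hearts of 6 to 8-week-old mice, for which no peeling of the epicardium is described. They were passaged in another medium, without the inhibitor. The 3 CDC-EpiC libraries were made from 1 clone, and neither untreated clones nor treated unpicked CDC were part of the table, so the inhibitor and the picking cannot be told apart. The kind of cell, its isolation and its culture medium cannot be told apart in any comparison with pEpiC. Each kind is 1 deposited sample with 3 library columns, which were taken as replicates, so every n of 3 counts libraries of 1 deposited sample. The labels mention separate RNA samples in a sentence that does not say whether they were separate within a kind, and they name no separate animals or cultures. The p-values therefore measure the spread between these libraries, which may be technical. Counts of libraries within a kind differed by more than sampling noise, where chi-square over its degrees of freedom was 4.89 to 23.05.

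Chemokines are small secreted proteins that guide moving cells along a gradient by binding receptors coupled to inhibitory G proteins. Cxcl12 signals through Cxcr4 and is taken up by Ackr3, which recruits arrestin, internalises the ligand and so shapes its gradient. In the heart, Cxcl12 is made by stromal, epicardial and vascular cells and takes part in coronary vessel growth and in the retention of progenitor cells. Ccl2 and Ccl7 draw monocytes through Ccr2, Cxcl1 and Cxcl5 draw neutrophils through Cxcr2, and Cx3cl1 and Cxcl16 are made as membrane proteins that proteases can shed.

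Expected counts, which estimate the reads of each gene, summed to 22008833 to 22756045 per library. The labelled cell types were checked against marker lists, as summed CPM (counts scaled to a common library size with TMM factors). A list of 11 epicardial or mesothelial genes summed to 684 to 712 CPM in CDC, 5789 to 6752 in CDC-EpiC and 562 to 597 in pEpiC, and none of the 11 was at 0 counts in any library. Upk3b, Lrrn4 and Upk1b, with means of 2656, 2122 and 1162 CPM, made up most of the sum in CDC-EpiC, while Tbx18 was lower there than in CDC (56.4 against 92.7 CPM), as was Krt19 (25.4 against 35.4 CPM). In pEpiC, Wt1 lay between 46.9 and 54.6 CPM and Tcf21 between 95.6 and 109 CPM. Their means in CDC were 10.0 and 12.3 CPM, and Wt1 averaged 119 CPM in CDC-EpiC. Krt8 and Krt18 did not exceed 2.86 CPM in pEpiC, with CDC means of 0.274 and 0.152 CPM. Of the 11, 6 rose and 5 fell from CDC to pEpiC at an adjusted p of 0.05. Those that fell were Upk3b (69.4 against 229 CPM), Upk1b (53.3 against 158), Msln (29.5 against 52.1), Tbx18 (49.2 against 92.7) and Krt19 (1.22 against 35.4). A list of 19 macrophage genes summed to 1193 CPM in pEpiC library 1, 441 in library 2 and 415 in library 3, against 73.5 to 75.3 in CDC and 30.4 to 33.3 in CDC-EpiC. In pEpiC none of the 19 was at 0 counts, whereas 6 to 8 were at 0 in a CDC library and 9 or 10 in a CDC-EpiC library. Fcgr1 was at 0 in all 6 libraries of CDC and CDC-EpiC and Ptprc in 5 of them, while Lyz2 (35.6 to 39.3 CPM) and Csf1r (18.6 to 20.7 CPM) carried most of the sum in CDC. Because of the macrophage genes, each pEpiC library is given apart. CDC libraries 1 and 2 also held 5 red blood cell genes at a summed 52.1 and 83.1 CPM, against 0.181 CPM in CDC library 3, and 12 cardiomyocyte genes at 31.3 and 31.0 CPM, against 9.83 CPM. The cardiomyocyte sum was 12.1 to 13.9 CPM in CDC-EpiC and 138 to 155 CPM in pEpiC, where Tnnt2 held most of it and Myh6 had at most 1 count. Fibroblast or mesenchymal genes (8) summed to 14062 to 17482 CPM in CDC, 8807 to 10178 in CDC-EpiC and 33849 to 36651 in pEpiC. A list of 10 endothelial genes summed to 7.52 to 8.62 CPM in CDC, 8.55 to 10.0 in CDC-EpiC and 24.5 to 26.8 in pEpiC. Tek held most of the endothelial sum in pEpiC (mean 17.6 CPM), while Egfl7 was lower there than in CDC (2.05 against 5.85 CPM). The part of these other cell types in the results was not tested. In bulk samples such as these, fewer cells of a type and less RNA per cell cannot be told apart.

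The 250 bases before the annotated start are shown for 4 of the genes, because Cxcl12 and its scavenger Ackr3 moved in opposite directions between CDC and pEpiC and because Cxcl1 and Ccl9 were both highest in pEpiC and lowest in the clone. The sequences are RefSeq's for build GRCm38.p6, in which 6 of the 10 genes were matched. Capitals mark letters found on either strand: the NF-kB motif (GGG, any 2 bases, TTTCC), which is in 1.41% of 32851 promoter windows of the same length, the GC box GGGCGG, in 32.7%, and the TATA box TATAAA, in 12.4%. No searched motif overlapped one of another name, though matches of the same motif could overlap. Cxcl12 lies on the plus strand, with the window chr6:117168285-117168534.
Cxcl12: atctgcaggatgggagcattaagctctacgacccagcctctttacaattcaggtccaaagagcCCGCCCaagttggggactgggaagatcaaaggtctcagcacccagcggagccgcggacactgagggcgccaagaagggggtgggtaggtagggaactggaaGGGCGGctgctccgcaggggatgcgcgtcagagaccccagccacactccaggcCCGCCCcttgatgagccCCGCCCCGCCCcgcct
Ackr3 lies on the plus strand, with the window chr1:90203730-90203979.
Ackr3: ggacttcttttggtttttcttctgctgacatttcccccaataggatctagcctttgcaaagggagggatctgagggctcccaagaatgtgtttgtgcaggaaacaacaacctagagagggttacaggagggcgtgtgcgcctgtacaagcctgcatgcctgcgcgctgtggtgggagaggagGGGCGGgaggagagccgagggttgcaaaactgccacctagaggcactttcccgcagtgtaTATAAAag
Cxcl1 lies on the plus strand, with the window chr5:90890995-90891244.
Cxcl1: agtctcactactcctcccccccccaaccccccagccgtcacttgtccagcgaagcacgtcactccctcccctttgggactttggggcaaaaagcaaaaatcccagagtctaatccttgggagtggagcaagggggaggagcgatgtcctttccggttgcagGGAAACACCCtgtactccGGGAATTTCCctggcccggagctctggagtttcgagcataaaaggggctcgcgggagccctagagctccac
Ccl9 lies on the minus strand, with the window chr11:83578637-83578886, printed in the direction of the gene.
Ccl9: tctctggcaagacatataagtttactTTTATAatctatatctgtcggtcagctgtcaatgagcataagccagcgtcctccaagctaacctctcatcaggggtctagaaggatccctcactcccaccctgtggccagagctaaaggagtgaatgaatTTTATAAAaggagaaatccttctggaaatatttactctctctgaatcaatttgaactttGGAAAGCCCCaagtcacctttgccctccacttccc
The Cxcl12 window held 5 GC boxes and neither of the other motifs. The Cxcl1 window held 2 NF-kB matches, beginning 89 and 71 bases before the start. The Ccl9 window held 1 NF-kB match, 35 bases before the start, and TATA matches farther upstream. The Ackr3 window held a GC box 68 bases and a TATA box 8 bases before the start. Of the other windows, that of Cx3cl1 held a GC box and a TATA box and that of Cxcl14 held none of these letters. Such matches describe the letters and were not tested as binding sites.

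In pEpiC against CDC, 7 of the 10 genes were lower and 3 were higher. Those lower were Cxcl12, Cxcl5, Cxcl14, Cxcl16, Cx3cl1, Ccl2 and Ccl7, and those higher were Cxcl1, Ccl9 and Ackr3. All 10 passed edgeR's quasi-likelihood test at an adjusted p of 0.05, beside 78.3% of all 13526 genes tested, of which 38.5% were lower and 39.8% higher. For none of the 10 did pEpiC and CDC libraries overlap, as was so for 81.5% of all genes. The median log2 change of the 10 was -1.48, against 0.02 over all genes. With so many genes called, the number of calls among the members is near what the whole table gives, and the sizes of the changes carry the description.

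In the clone against CDC, 7 genes were lower (Cxcl12, Cxcl1, Cxcl5, Cx3cl1, Ccl2, Ccl7 and Ccl9), Cxcl16 was higher, and Cxcl14 and Ackr3 did not pass. Over all 12976 genes, 68.8% passed, 34.6% lower and 34.2% higher. The libraries did not overlap for 9 of the 10 genes, beside 72.1% of all genes, and the median log2 change of the 10 was -1.27, against 0.003 over all genes. The clone against pEpiC, in contrast, gave as many genes higher as lower. Cxcl5, Cxcl14, Cxcl16, Cx3cl1 and Ccl2 were higher in the clone and Cxcl12, Cxcl1, Ccl7, Ccl9 and Ackr3 lower. All 10 passed, beside 81.9% of 13547 genes (40.3% higher, 41.5% lower), and 9 did not overlap, beside 84% of all genes. The 3 comparisons share libraries in pairs, so their values are given side by side and are not independent.

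**Figure D1:**
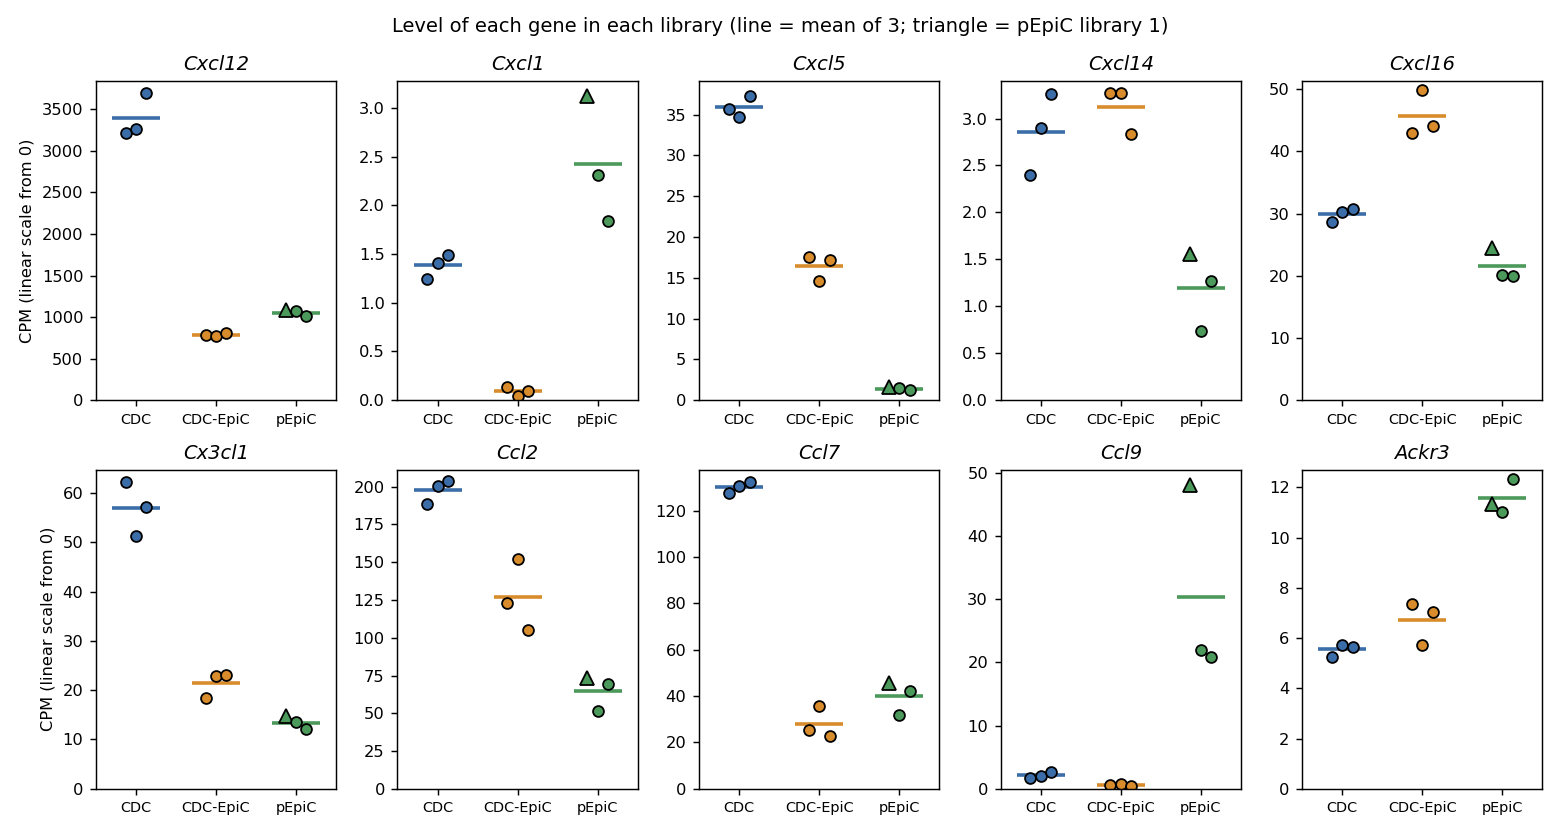
Level of each of the 10 genes in each of the 9 libraries, as CPM on a linear axis that starts at 0, by kind of cell. Points are libraries, lines are means of 3, and triangles mark pEpiC library 1, which stands apart from the other pEpiC libraries for Ccl9 (48.1 against 22 and 20.8 CPM) but not for Cxcl12 (1080.4 against 1067 and 1013 CPM).

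**Figure D2:**
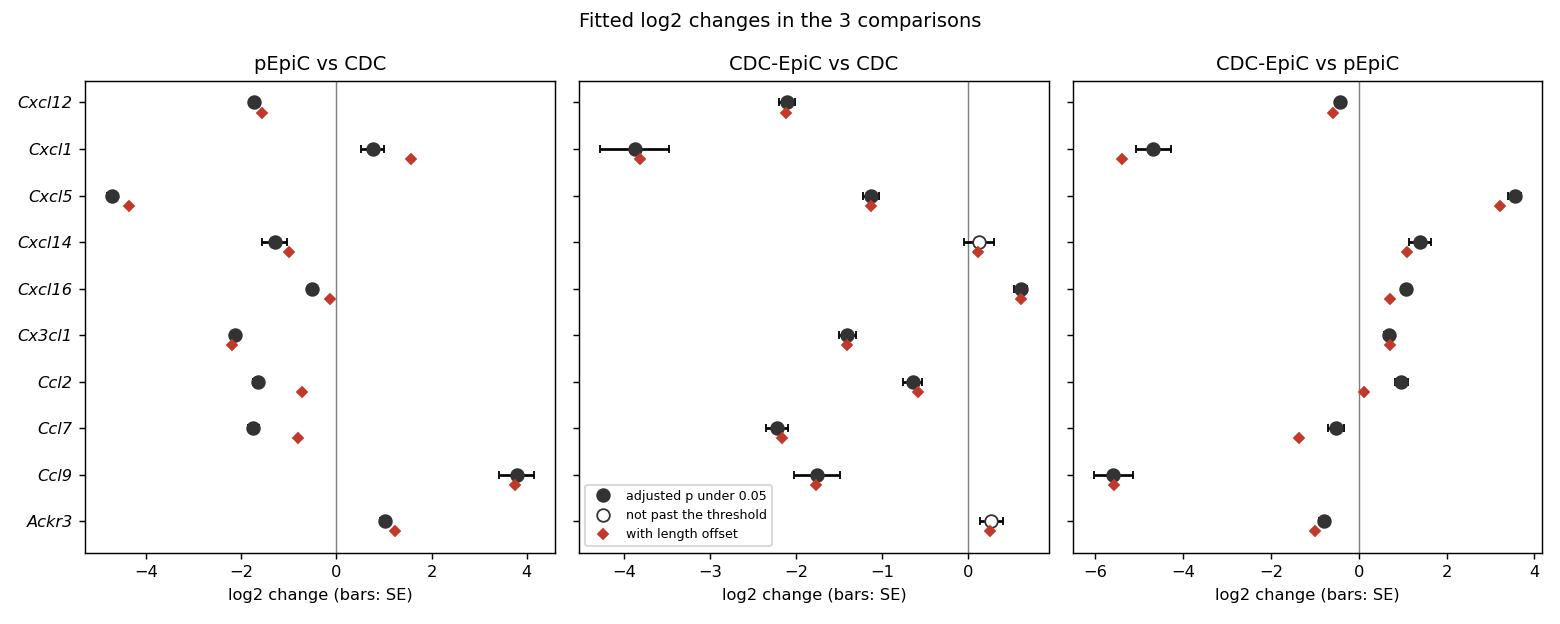
Fitted log2 change (horizontal axis, bars are standard errors) of each gene in the 3 comparisons, from pEpiC vs CDC on the left to CDC-EpiC vs pEpiC on the right. Filled circles passed at an adjusted p of 0.05, open circles (Cxcl14 and Ackr3 in CDC-EpiC vs CDC) did not, and diamonds give the change after an offset for transcript length.

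Transcript length bears on every comparison with pEpiC. Genes under 1000 bases of effective length had a median log2 change of -0.99 in pEpiC against CDC (916 genes), and those over 4000 bases of 0.41. In the clone against pEpiC the medians of the same classes were 0.88 and -0.42, while in the clone against CDC they were -0.09 and 0.001. Among the 10 genes, Ccl7, Ccl2 and Cxcl1 are short, with effective lengths of 780, 785 and 935 bases, and Ccl9 and Cx3cl1 are long, with 3018 and 3170. A fit with an offset that follows length is therefore given beside the changes that it moved most or whose call it ended. On TPM, which is scaled per length as well as per library, the median over all genes itself moved to 0.41 in pEpiC against CDC and to -0.33 in the clone against pEpiC, on the log2(TPM + 1) scale. There, 74.5% of the calls in pEpiC against CDC were higher, against 50.8% on counts, and 32.9% of those in the clone against pEpiC, against 49.3%. The members kept their directions on that scale, where the changes of low genes are understated.

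Cxcl12 was the most abundant of the 10 genes per length in each kind. Its TPM averaged 2691 ± 333 (SD, n = 3) in CDC, which ranked 54 among all genes, 627 ± 27.9 in CDC-EpiC (rank 228) and 1228 ± 44.9 in pEpiC (rank 117). The gene lies at chr6:117168535-117181367 on the plus strand (GRCm38). Its level was 3218, 3259 and 3696 CPM in the CDC libraries, 783, 773 and 806 CPM in the clone, and 1080.4, 1067 and 1013 CPM in pEpiC libraries 1, 2 and 3. The 3 ranges were well apart, with CDC highest and the clone lowest. The log2 change was -2.11 ± 0.09 (SE, adjusted p = 2.2e-11) in the clone and -1.73 ± 0.07 (adjusted p = 1.6e-08) in pEpiC, each against CDC. Between the clone and pEpiC it was -0.42 ± 0.05 (adjusted p = 3.7e-05). On TPM the fall from CDC to pEpiC was smaller, -1.12 in limma, and the clone lay farther under pEpiC, at -0.97. The macrophage-rich pEpiC library 1 was 1.04 times the mean of the other pEpiC libraries for Cxcl12.

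Ackr3 (chr1:90203980-90216751, plus strand), which removes Cxcl12 from the surroundings of a cell, ran the other way in pEpiC. It held 5.26, 5.72 and 5.66 CPM in CDC, 7.34, 5.72 and 7.05 CPM in the clone, and 11.3, 11 and 12.3 CPM in pEpiC. All pEpiC libraries were above all others, while the lowest clone library and the highest CDC library were equal at 2 decimals. Ackr3 was higher in pEpiC than in CDC by a log2 change of 1.01 ± 0.10 (adjusted p = 7.7e-06) and lower in the clone than in pEpiC by -0.79 ± 0.12 (adjusted p = 1.4e-04). The clone's 0.27 ± 0.14 against CDC did not pass (adjusted p = 0.0967). It did pass without clone library 2 (0.36, adjusted p = 0.0404) and in limma on TPM (0.28, adjusted p = 0.0434). Library 1 of pEpiC was 0.969 times the mean of the other pEpiC libraries, so the Ackr3 level did not move with the macrophage genes there.

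The ratio of Cxcl12 to Ackr3, in TPM within each library, was chosen after the values were seen. It was 555, 521 and 601 in CDC, 92.6, 119 and 99.98 in the clone, and 93.9, 94.6 and 81.1 in pEpiC. Every CDC library was above every other library, and the clone and pEpiC overlapped. On the log2 scale the ratio was lower by -2.43 in the clone and by -2.64 in pEpiC than in CDC, each with an exact two-sided permutation p of 0.1, the smallest that 3 against 3 libraries allow. The difference of 0.21 between the clone and pEpiC had an exact permutation p of 0.3. The other receptor of Cxcl12, Cxcr4, was close to absent outside pEpiC. It had 0, 2 and 0 counts in CDC, 0 in each clone library, and 73, 24 and 29 counts in pEpiC. The pEpiC total of 126 counts against 2 in CDC was 60.2-fold higher (95% interval 16.3 to 503, covering counting error only), and the clone was at least 13.5-fold lower than pEpiC (floor of 3 counts per library). Cxcr4 in pEpiC library 1 was 2.73 times the mean of libraries 2 and 3, beside 2.06 to 4.21 for the macrophage genes. The part of those genes in the Cxcr4 level was not tested.

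Ccl2 and Ccl7, the monocyte-attracting pair, sit 8258 bases apart on chromosome 11, both on the plus strand (chr11:82035571-82037453 and chr11:82045712-82047525). Ccl2 held 189, 201 and 204 CPM in CDC, 123, 152 and 105 CPM in the clone, and 73.3, 51.8 and 69.4 CPM in pEpiC. Ccl7 held 128, 131 and 132 CPM in CDC, 25.3, 35.8 and 22.6 CPM in the clone, and 45.8, 31.7 and 42.3 CPM in pEpiC. Both were highest in CDC, but the lowest kind was pEpiC for Ccl2 and the clone for Ccl7. Ccl7 was the only one of the 10 genes whose clone and pEpiC libraries overlapped.

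Against CDC, the clone was lower by a log2 change of -0.65 ± 0.11 for Ccl2 (adjusted p = 7.8e-05) and of -2.23 ± 0.13 for Ccl7 (adjusted p = 5.1e-10). In pEpiC the changes were nearly equal, -1.65 ± 0.11 for Ccl2 (adjusted p = 4.9e-07) and -1.75 ± 0.11 for Ccl7 (adjusted p = 3.1e-07). With the length offset these 2 shrank to -0.72 and -0.81 and still passed. Ccl2 was higher in the clone than in pEpiC (0.96 ± 0.15, adjusted p = 1.7e-04), but not with the length offset (0.12, adjusted p = 0.412). Ccl7 was lower in the clone than in pEpiC (-0.52 ± 0.17, adjusted p = 0.0185), and by -1.36 with the offset. That call was lost without clone library 1 (adjusted p = 0.0784), clone library 3 (0.0838) or pEpiC library 3 (0.0538), over log2 changes of -0.48 to -0.38.

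The transcripts have nearly the same effective length, so their count ratio within a library is free of the length effect. The Ccl2 to Ccl7 ratio, also chosen after the values were seen, was 1.48, 1.54 and 1.54 in CDC and 1.60, 1.64 and 1.64 in pEpiC. In the clone it was 4.86, 4.26 and 4.65. The clone libraries were thus above all others, by 1.59 on the log2 scale against CDC and 1.49 against pEpiC (exact two-sided permutation p = 0.1 for each, the smallest possible). The pEpiC libraries were above those of CDC by 0.10, with the same exact p of 0.1. Ccr2, the receptor of both ligands, was under the filter in every comparison, with at most 10.9 counts in a library.

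**Figure D3:**
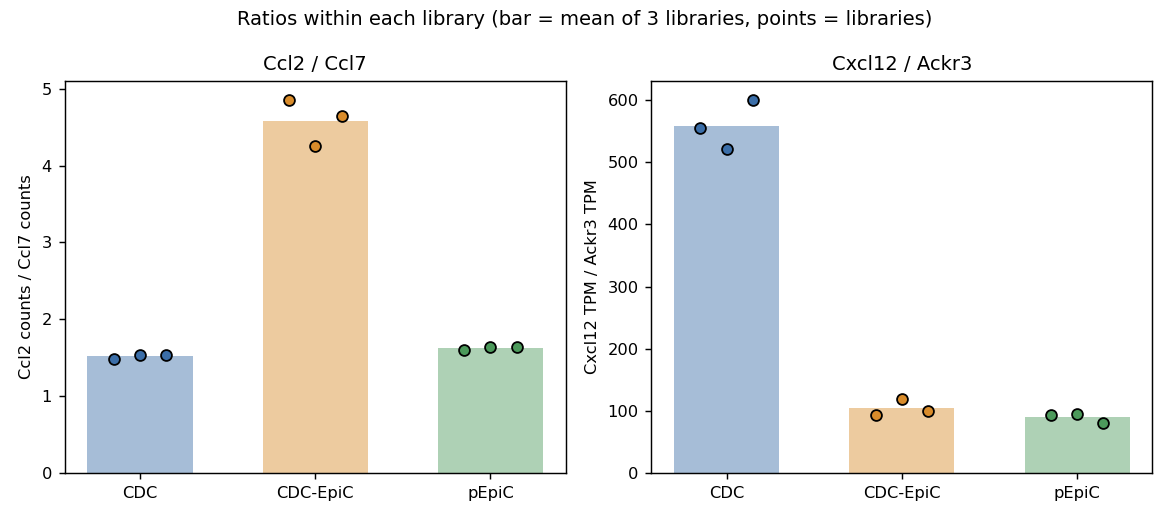
Ratio of Ccl2 to Ccl7 counts (left) and of Cxcl12 to Ackr3 TPM (right) within each library, by kind of cell. Bars are means of 3 libraries and start at 0, and points are libraries: the clone libraries alone lie at 4.26 or above on the left, and the CDC libraries alone at 521 or above on the right.

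Cxcl5 showed the largest fall of the 10 genes in pEpiC. This neutrophil attractant (chr5:90759360-90761624, plus strand) held 35.7, 34.7 and 37.3 CPM in CDC, 17.6, 14.6 and 17.2 CPM in the clone, and 1.56, 1.44 and 1.18 CPM in pEpiC. The 3 kinds did not overlap. The log2 change was -4.73 ± 0.11 in pEpiC (adjusted p = 3.1e-10) and -1.13 ± 0.09 in the clone (adjusted p = 2.2e-08) against CDC, and the clone was above pEpiC by 3.55 ± 0.14 (adjusted p = 9.1e-09). Its expected counts were whole in only 1 of the 9 libraries, so part of its reads was assigned by estimate and its level is uncertain to that extent.

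Cxcl1, a neutrophil attractant that uses the same receptor and lies 129616 bases from Cxcl5 on chromosome 5 (chr5:90891241-90893115, plus strand), did not follow it. It was a low transcript throughout, with 27, 31 and 33 counts in CDC, 3, 1 and 2 in the clone, and 72, 53 and 42 in pEpiC. The clone was lowest and pEpiC highest, with no overlap. In pEpiC the log2 change against CDC was 0.76 ± 0.24 (adjusted p = 0.0137), or 1.58 with the length offset. That call was lost without pEpiC library 1 (0.54, adjusted p = 0.0526) or CDC library 1 (0.68, adjusted p = 0.0549). CDC held 15.5-fold more Cxcl1 than the clone by summed counts (95% interval 6.85 to 43.3) and pEpiC 27.2-fold more (12.2 to 75.1), where the intervals cover counting error only. Both differences passed in edgeR (adjusted p = 5.1e-07 and 2.1e-06), and the fitted log2 change between the clone and pEpiC was -4.68, or -5.39 with the length offset. In pEpiC library 1 Cxcl1 was 1.51 times the mean of the other pEpiC libraries, below the ratio of each of the 19 macrophage genes, and its relation to them was not tested. Cxcr2, the receptor of Cxcl1 and Cxcl5, held 2.27 to 4.90 CPM over the 9 libraries and passed in no comparison (adjusted p = 0.0555 in pEpiC and 0.0759 in the clone against CDC, and 0.809 between them), though its -0.57 in pEpiC passed with the length offset (adjusted p = 0.0451).

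The membrane-bound ligands Cx3cl1 and Cxcl16 moved in opposite directions in the clone. Cx3cl1, which tethers and attracts monocytes, T cells and microglia (chr8:94772009-94782427, plus strand), held 62.2, 51.2 and 57.2 CPM in CDC, 18.4, 22.97 and 23.2 CPM in the clone, and 14.7, 13.5 and 12.1 CPM in pEpiC. CDC was highest and pEpiC lowest, with no overlap. The log2 change against CDC was -1.41 ± 0.10 in the clone (adjusted p = 6.9e-09) and -2.13 ± 0.09 in pEpiC (adjusted p = 2.2e-08), and the clone was above pEpiC by 0.68 ± 0.11 (adjusted p = 2.0e-04). On TPM that last difference was 0.27 and still passed (adjusted p = 0.0411).

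Cxcl16, which binds Cxcr6 and also acts as a scavenger of oxidised lipoprotein (chr11:70453983-70459984, minus strand), was highest in the clone. It held 28.6, 30.3 and 30.7 CPM in CDC, 43.0, 49.8 and 44.1 CPM in the clone, and 24.5, 20.04 and 19.97 CPM in pEpiC. It was the one gene of the 10 to pass as higher in the clone than in CDC, by 0.60 ± 0.08 (adjusted p = 8.0e-06), and it was above pEpiC by 1.08 ± 0.09 (adjusted p = 1.8e-06), or 0.72 with the length offset. The lower level in pEpiC than in CDC (-0.52 ± 0.09, adjusted p = 3.5e-04) did not pass with the length offset (-0.13, adjusted p = 0.171) and was -0.30 on TPM. Cx3cr1, the receptor of Cx3cl1, had 1.22 to 7.29 counts in CDC and clone libraries and 89.1, 25.0 and 33.7 in pEpiC, a log2 change of 3.48 ± 0.63 in pEpiC against CDC (adjusted p = 4.9e-04). In pEpiC library 1 it was 2.99 times the mean of libraries 2 and 3, again with the macrophage genes, whose part was not tested. Cxcr6 had at most 10 counts in any library and was under the filter.

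Cxcl14, an epithelial and stromal chemokine (chr13:56288643-56296551, minus strand), was low in every kind. It held 2.40, 2.90 and 3.26 CPM in CDC, 3.27, 3.27 and 2.84 CPM in the clone, and 1.56, 0.741 and 1.27 CPM in pEpiC. The CDC and clone libraries overlapped, and all pEpiC libraries lay below them. The log2 change in pEpiC was -1.30 ± 0.27 against CDC (adjusted p = 0.00118), and the clone was above pEpiC by 1.39 ± 0.25 (adjusted p = 5.4e-04). Between the clone and CDC it was 0.12 ± 0.18 (adjusted p = 0.551), and its sign turned without CDC libraries 1 and 2 (-0.07, adjusted p = 0.824).

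Ccl9 showed the largest rise of the 10 in pEpiC, and its pEpiC libraries differed by the largest factor. This ligand of Ccr1 attracts myeloid cells (chr11:83572919-83578636, minus strand). It held 1.75, 1.95 and 2.67 CPM in CDC and 0.663, 0.726 and 0.487 CPM in the clone. In pEpiC it held 48.1 CPM in library 1, 22 in library 2 and 20.8 in library 3. The lowest pEpiC library was thus still far above the highest CDC library. Ccl9 was higher in pEpiC than in CDC by 3.79 ± 0.36 (adjusted p = 5.2e-06), and by 3.28 without pEpiC library 1. The clone was lower than CDC by -1.76 ± 0.27 (adjusted p = 3.0e-05) and lower than pEpiC by -5.59 ± 0.44 (adjusted p = 1.1e-06), or -5.09 without pEpiC library 1. The expected counts of Ccl9 were whole in 0 of the 9 libraries, so part of its reads too was assigned by estimate.

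Ccl9 moved with the macrophage genes between the pEpiC libraries. Its level in library 1 was 2.25 times the mean of libraries 2 and 3, and the 19 macrophage genes ranged from 2.06 to 4.21, with a median of 2.90. The median over 12591 genes at 1 CPM or more was 0.999, and 1.46% of them had a ratio as high as that of Ccl9. Without library 1 the pEpiC mean of Ccl9 fell from 30.3 to 21.4 CPM, and the macrophage sum in libraries 2 and 3 was still 441 and 415 CPM, against at most 75.3 in CDC. The part of macrophages in the Ccl9 level of pEpiC was not tested. The other 9 genes had ratios of 0.969 (Ackr3) to 1.55 (Cxcl14), all under the lowest macrophage gene, with Ccl2 at 1.21, Ccl7 at 1.24 and Cxcl16 at 1.22. Ccr1, the receptor of Ccl9, had 101, 42 and 28 counts in pEpiC against 0, 3 and 3 in CDC and 0, 0 and 1 in the clone, and its library 1 ratio was 2.87.

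**Figure D4:**
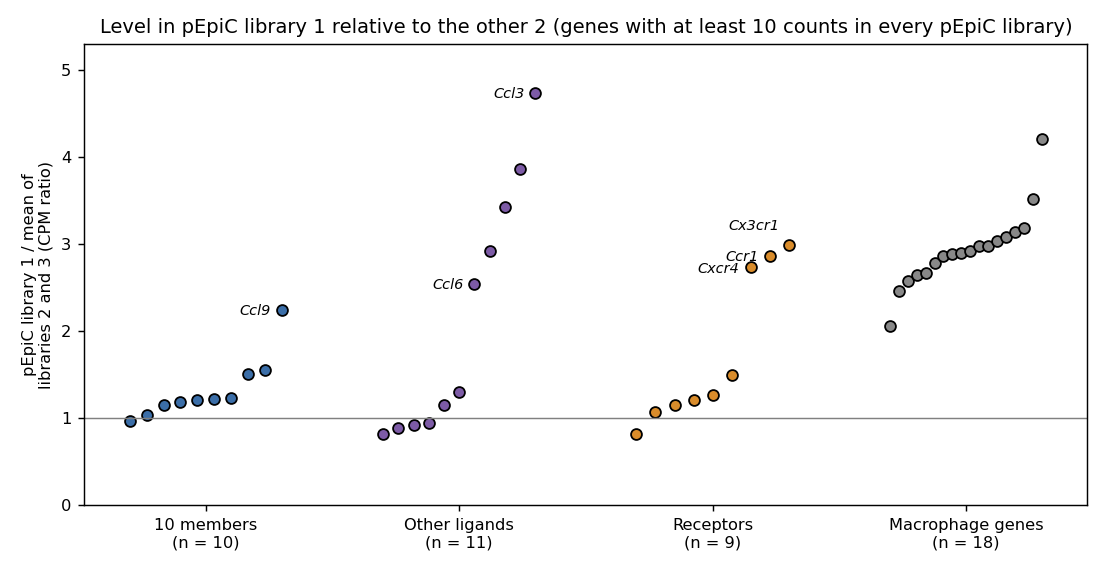
Level in pEpiC library 1 divided by the mean of pEpiC libraries 2 and 3 (vertical axis, ratio of CPM, from 0), for the 10 members and for other ligands, receptors and macrophage genes with at least 10 counts in every pEpiC library. Points are genes, and the line marks 1: of the 10 members, Ccl9 at 2.25 alone reaches the range of the macrophage genes.

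Per length, the ligands differed by orders of magnitude within a kind. In CDC, Ccl2 (445 ± 31.0 TPM) and Ccl7 (295 ± 15.6) followed Cxcl12, and then came Cxcl5 (38.5 ± 2.88), Cxcl16 (34.1 ± 2.09) and Cx3cl1 (31.7 ± 3.45), the last 2 of which overlapped between libraries. Cxcl14 (2.85 ± 0.501), Cxcl1 (2.61 ± 0.316) and Ccl9 (1.25 ± 0.335) were lowest. In the clone the order began with Cxcl12, Ccl2 (299 ± 49.0 TPM), Ccl7 (66.3 ± 14.9) and Cxcl16 (52.9 ± 3.54), where the libraries of Ccl7 and Cxcl16 overlapped. In pEpiC, Ccl9 (24.2 ± 12 TPM) stood beside Cxcl16 (27.6 ± 2.78), with overlapping libraries, and Cxcl5 (2.05 ± 0.261) had gone from the fourth place in CDC to near the end.

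The 9 member ligands made up nearly all ligand transcripts of the table. Summed over 32 ligands, the level was 3346, 3396 and 4037 TPM in CDC, 1123, 1212 and 1133 TPM in the clone, and 1880.3, 1678 and 1670.01 TPM in pEpiC. The members held 98.4% to 98.7% of it in CDC, 93.4% to 93.5% in the clone, and 90.6%, 94.6% and 94.8% in pEpiC libraries 1, 2 and 3. The lowest of these shares was thus in the macrophage-rich library. Cxcl12 alone held 73.9% to 76.2% in CDC, 50.1% to 58.1% in the clone and 66.3% to 75.2% in pEpiC. Its share was lower in the clone than in CDC in every library (exact two-sided permutation p = 0.1, the smallest possible), while pEpiC and CDC overlapped (exact permutation p = 0.3). Ccl2 and Ccl7 together held 27.4% to 35.9% of ligand TPM in the clone, against 19.6% to 21.4% in CDC and 15.7% to 20.7% in pEpiC. The TPM of each was nevertheless lower in the clone than in CDC (means of 299 against 445 and of 66.3 against 295).

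**Figure D5:**
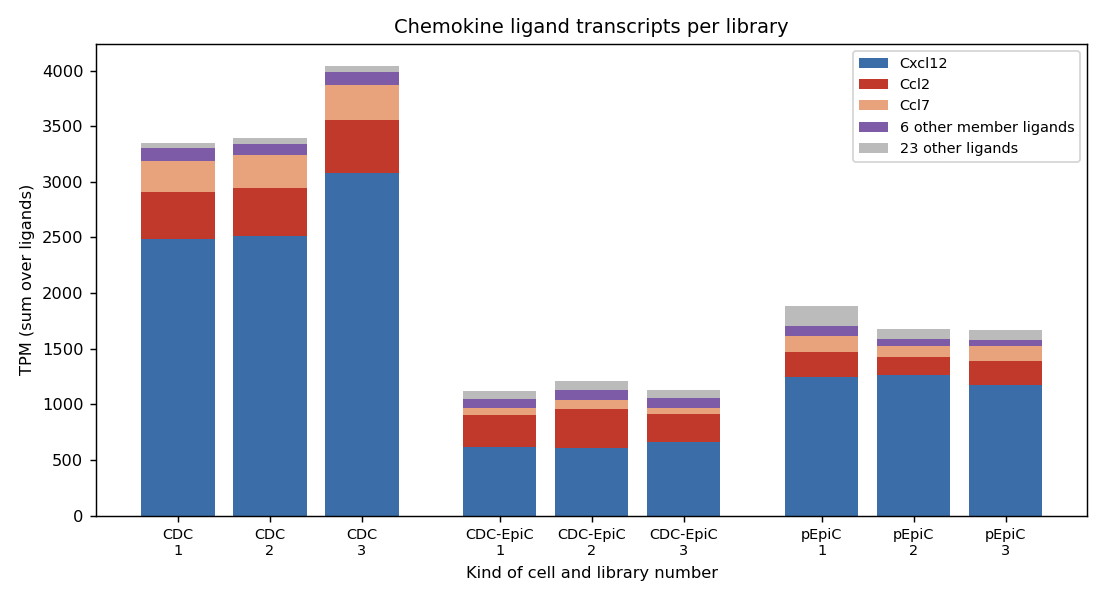
Summed TPM of 32 chemokine ligands in each library (vertical axis, from 0), stacked as Cxcl12, Ccl2, Ccl7, the 6 other member ligands and the 23 other ligands of the table. The CDC libraries reach 3346 to 4037 TPM and the clone libraries 1123 to 1212 TPM, and Cxcl12 is the largest block in every bar.

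Beyond the members, 28 further ligands were listed, of which 23 are in the table. In pEpiC against CDC, 6 were higher, 6 lower and 3 did not pass, of 15 tested, beside 78.3% of all genes that passed. The median log2 change of the 15 was 0.10. Ccl6, a close relative of Ccl9 that also draws myeloid cells, was the one of these at 10 CPM or more by its mean. It had 4, 3 and 6 counts in CDC, 0, 0 and 5 in the clone, and 773, 305 and 298 in pEpiC, a log2 change of 6.58 ± 0.57 in pEpiC against CDC (adjusted p = 2.3e-06). Its ratio in pEpiC library 1 was 2.55, and those of Ccl3, Ccl4, Ccl12 and Pf4 were 4.74, 3.42, 2.93 and 3.86, all in or above the range of the macrophage genes. Cxcl13, the remaining ligand higher in pEpiC (35 to 55 counts against 1 to 3 in CDC, adjusted p = 4.5e-06), had a ratio of 0.927. These 5 were named after their values were seen. On TPM, 8 further ligands were higher and 4 lower. In the clone against CDC, 4 further ligands were higher, 5 lower and 1 did not pass, of 10 tested. Against pEpiC, 5 were higher, 7 lower and 1 did not pass, of 13 tested. Over all genes, 68.8% passed in the clone against CDC and 81.9% in the clone against pEpiC.

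Of 22 listed receptors, 20 are in the table and few passed the filter. In pEpiC against CDC, 7 of the 9 tested were higher, 1 was lower and Cxcr2 did not pass. Over all genes, 78.3% passed there, 39.8% higher and 38.5% lower. In the clone against CDC only 3 could be tested, of which 1 was higher and 1 lower, beside 68.8% of all genes that passed. Against pEpiC, 6 of 9 were lower and none higher, with 3 not passing. There, 81.9% of all genes passed, 41.5% of them all as lower and 40.3% as higher. Among the receptors higher in pEpiC, library 1 ratios were 2.73 to 2.99 for Cxcr4, Ccr1 and Cx3cr1, inside the range of the macrophage genes. The signalling receptors of the members' ligands were at 4.90 CPM or less in every library. Per length, Ackr3 was at 4.48 to 14.5 TPM and Cxcr4 at 0 to 4.21 TPM, so Ackr3 exceeded Cxcr4 in each library.

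Genes that cut the ligands or handle the receptors changed in both directions. Of 11 tested, 4 were higher, 4 lower and 3 did not pass in pEpiC against CDC, beside 78.3% of all genes that passed. In the clone against CDC, 3 were higher and 7 lower, beside 68.8% of all genes. In the clone against pEpiC, 3 were higher and 5 lower, beside 81.9% of all genes. On TPM the counts shifted with the median of all genes, to 7 higher and 1 lower in pEpiC against CDC and to 1 higher and 8 lower in the clone against pEpiC. Dpp4, which removes the first residues of Cxcl12 and inactivates it, held 4.29, 5.72 and 5.21 CPM in CDC, 0.929, 0.681 and 0.709 CPM in the clone, and 23.2, 22.7 and 26.2 CPM in pEpiC. It was higher in pEpiC (log2 change 2.2 ± 0.12, adjusted p = 8.0e-08) and lower in the clone (-2.71 ± 0.21, adjusted p = 2.3e-08) than in CDC. Mmp2, a gelatinase that also trims Cxcl12 and Ccl7, held 13.5, 11.2 and 13.9 CPM in CDC, 2.04, 2.36 and 2.17 CPM in the clone, and 1071, 1072 and 995.6 CPM in pEpiC, with log2 changes of 6.30 and -2.56 against CDC (adjusted p = 5.9e-11 and 4.4e-10). Both genes had pEpiC libraries above all others and clone libraries below all others. Neither was raised in pEpiC library 1, with ratios of 0.947 and 1.04.

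The sheddases of Cx3cl1 and Cxcl16 were expressed throughout. Adam17 was higher in pEpiC (0.86 ± 0.08, adjusted p = 4.9e-06) and in the clone (0.68 ± 0.10, adjusted p = 1.4e-05) than in CDC, whereas Adam10 was lower in the clone (-0.24 ± 0.09, adjusted p = 0.0331, with overlapping libraries) and did not pass in pEpiC (-0.17, adjusted p = 0.0885). Mmp14, which activates Mmp2, was higher in pEpiC (0.80 ± 0.08, adjusted p = 8.0e-06) and lower in the clone (-0.29 ± 0.10, adjusted p = 0.0192). The arrestins, which Ackr3 recruits, were both higher in the clone than in CDC, by 0.98 ± 0.08 for Arrb1 (adjusted p = 3.9e-08) and 0.80 ± 0.09 for Arrb2 (adjusted p = 1.2e-06). In pEpiC against CDC neither passed (0.01 and 0.20, adjusted p = 0.946 and 0.485), though Arrb1 passed as lower with the length offset (-0.49, adjusted p = 0.00184), and Arrb2 in pEpiC library 1 was 2.07 times the mean of the others. Of the receptor kinases, Grk5 held 82.5 to 88.9 CPM in CDC, 65.3 to 72.1 in pEpiC and 10.0 to 11.8 in the clone, a log2 change of -2.98 ± 0.09 in the clone against CDC (adjusted p = 2.3e-13). Grk2 was also lower in the clone and in pEpiC than in CDC (-0.52 and -0.42, adjusted p = 4.3e-05 and 6.3e-04), Grk6 was lower in pEpiC (-0.49, adjusted p = 4.6e-05), and the G protein subunit Gnai2 was lower in both (-0.21 in the clone, adjusted p = 0.0288, and -0.71 in pEpiC, adjusted p = 3.1e-06). The calls of Adam10, Mmp14 and Gnai2 in the clone were lost in at least 1 alternative (adjusted p up to 0.232, 0.102 and 0.267), and on TPM, whose median over all genes moved up, the pEpiC values of Grk2, Grk5 and Grk6 turned to as much as 0.09, 0.08 and 0.03.

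NF-kB is the transcription factor family known to drive Ccl2, Cxcl1 and Cxcl5 in inflammation. Of 9 genes of the pathway, 8 were lower and none higher in pEpiC against CDC on counts, with a median log2 change of -0.55. On TPM, where the median of all genes was 0.41, 4 were lower, 2 (Nfkb1 and Rela) higher and 3 (Nfkbia, Relb and Zfp36) did not pass, with a median of -0.05. In the clone against CDC 3 were higher, 4 lower and 2 did not pass, with a median of 0.11, and against pEpiC 7 were higher, 1 lower and 1 did not pass, with a median of 0.55, or 4, 2 and 3 on TPM. Tnfaip3, Zc3h12a and Nfkbiz were lower than in CDC in both other kinds. Their log2 changes were -1.32, -1.62 and -0.71 in pEpiC (adjusted p = 7.9e-05, 3.9e-08 and 9.1e-06) and -0.80, -0.93 and -1.42 in the clone (adjusted p = 4.7e-04, 2.3e-07 and 5.9e-09). The inhibitor Nfkbia and the subunit Rela were lower in pEpiC (-0.44 and -0.20, adjusted p = 8.3e-04 and 0.0172) and higher in the clone (0.45 and 0.29, adjusted p = 9.1e-05 and 0.00689) than in CDC, but neither passed in pEpiC with the length offset (adjusted p = 0.691 and 0.0540), and on TPM both turned, to as much as 0.06 and 0.31. Nfkb2 and Relb were lower in pEpiC (-0.86 and -0.54, adjusted p = 2.6e-06 and 8.8e-06). Zfp36, whose product destabilises chemokine transcripts, was lower in pEpiC (-0.55, adjusted p = 6.8e-06) and higher in the clone (0.31, adjusted p = 0.0302, with overlapping libraries). The median and the counts are descriptions, and no call is particular to these lists, since 68.8% to 81.9% of all genes passed.

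Genes with the most similar pattern over the 9 libraries were sought among 9473 genes with a mean of at least 10 CPM, by the root mean square difference of centred log2(CPM + 1). For Cxcl12 they included Rflnb (0.128), Trim16 (0.143), Garem2 (0.153) and Hpse (0.177). Rflnb averaged 38.8 CPM in CDC, 8.33 in the clone and 12.6 in pEpiC. For Ackr3 they were Cog6 (0.0576), Morc3 (0.0753), Rcbtb1 (0.0768), Armcx1 (0.0815) and Zfp407 (0.0828), and for Ccl2 Elob (0.145), Tigar (0.171), Serhl (0.171), Nup43 (0.171) and Pfdn4 (0.173). These likenesses describe 9 libraries of 3 kinds of cell. They were computed without the length offset, and the part of transcript length in them was not tested.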

How the data were processed

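Messenger RNA of CDC, CDC-EpiC and pEpiC was selected on oligo(dT) beads and sequenced on a BGISEQ-500. The authors deposited expected counts, FPKM and TPM per gene for 9 libraries, 3 per kind. FPKM (fragments scaled per length and library) deposited by the authors served here, with the counts, to derive effective lengths, and the deposited TPM to compare genes. Per the labels, the submitters' processing notes name HISAT2 2.0.4, Bowtie2 2.2.5, RSEM 1.2.12 and DESeq2 1.4.5 and build mm10, without roles. Annotation and strand setting are not given in the sources used here, so overlapping and antisense genes are uncertain. Expected counts were not whole for 30.3% of values (tolerance 0.005). The deposited averages equalled the library means and were not used.

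Expected counts were rounded and each pair of kinds (6 libraries) was fitted alone in edgeR 4.0.16 under R 4.3.3, by glmQLFit and glmQLFTest after filterByExpr (minimum count 10, minimum total 15) and TMM. Benjamini-Hochberg adjustment ran over all genes tested, with a threshold of 0.05, and SE is the log2 change over the root of the F statistic. Errors of levels are SD, n = 3. Count ratios carry exact 95% intervals for groups with few counts, and a group at 0 was set to a floor of 3 counts per library. Intervals and floors cover counting error only, since PCR reads are not independent molecules. Ratios within libraries were compared by exact permutation. Positions are GENCODE M21 (GRCm38). The fits were also run on simulated counts for pEpiC against CDC, with known changes in genes of higher counts and no length effect. That run does not bear on genes of few counts, on the length effect or on the comparisons with the clone.

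The members and lists were chosen with earlier results of these data known. Other chemokine system genes were named where they passed in a comparison with a mean of at least 10 CPM in a kind, or are receptors of members, and the 5 genes most like Cxcl12, Ackr3 and Ccl2 in pattern were sought. Some genes are not reported here. Alternatives were DESeq2 1.42.0, RLE, library size alone, no filter, 10 counts in every library, all libraries in one fit, limma 3.58.1 on log2(TPM + 1) and log2(TPM + 0.1), a length offset, a replicate block and leaving out libraries. Figures were drawn with matplotlib 3.10.9 under Python 3.11.15 (pandas 2.3.3, NumPy 2.4.6).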

Additional observations from a re-analysis of the deposited data

How the results depend on the processing

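Over 20 alternatives, 498 values of a member's log2 change were recomputed, of which 486 kept their direction and their side of the threshold. The 8 that lost the call were Cxcl16 in pEpiC against CDC and Ccl2 in CDC-EpiC against pEpiC with the length offset, Cxcl1 in pEpiC against CDC without CDC library 1, without pEpiC library 1 or without CDC libraries 1 and 2 together (0.65, adjusted p = 0.163), and Ccl7 in CDC-EpiC against pEpiC without any of 3 libraries. Ackr3 in CDC-EpiC against CDC gained a call 3 times. Cxcl14 in CDC-EpiC against CDC, which never passed, ranged from -0.0677 without CDC libraries 1 and 2 together to 0.23 without CDC library 3, the first being an alternative chosen after seeing the data. The number of members called ranged from 9 to 10 in pEpiC against CDC, 7 to 9 in CDC-EpiC against CDC and 9 to 10 in CDC-EpiC against pEpiC. Cxcl1, with 1 to 3 counts in the clone, went untested in both clone comparisons where 10 counts were required in every library. The 7 thus reflects an untested gene and not a lost call. With at least 10 counts in every library, which leaves fewer genes to test, 20 other chemokine system genes were called in pEpiC against CDC in place of 36, and 22 in CDC-EpiC against pEpiC in place of 34.

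The library numbers share only a number: deviations of same-numbered libraries correlated at -0.0909 to 0.142. With the replicate block, 10, 8 and 10 members and 10604, 8831 and 11096 genes were called in the order of comparisons above, and no call of a member changed. Depth limits Cxcl1 and Cxcl14, with 1 to 74 counts per library, and Ccl9 in CDC-EpiC, with 10.5 to 16.0 counts.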

Other observations

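Cxcl17, a chemokine of mucosal epithelia, was higher in the clone than in either other kind, and the 5 ligands given here were named after their values were seen. It had 219, 161 and 185 counts in the CDC-EpiC libraries, 15, 5 and 1 in CDC and 0, 0 and 1 in pEpiC. The clone was higher than CDC by a log2 change of 4.69 ± 0.35 (edgeR, adjusted p = 1.2e-08), and its 565 counts against 1 in pEpiC gave a ratio of 579 (95% interval 103 to 22904, counting error only). Cxcl10 and Ccl5 were also higher in the clone than in CDC, by 1.84 ± 0.36 (adjusted p = 3.3e-04) and 1.17 ± 0.20 (adjusted p = 1.0e-04). Cxcl10 held 2.52, 8.35 and 5.10 CPM in the clone libraries, a wide spread, against 1.06 to 2.09 CPM in CDC.

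Ccl17 and Cxcl15 ran the other way. Ccl17, a ligand of Ccr4, had 54, 71 and 45 counts in CDC, 4, 2 and 3 in the clone and 0, 1 and 1 in pEpiC. Its log2 change in the clone was -4.22 ± 0.35 (adjusted p = 4.8e-08). Cxcl15 had 73.8, 102 and 78.4 counts in CDC, 5.11 to 11.1 in the clone and 0 to 1.01 in pEpiC, with a log2 change of -3.48 ± 0.28 in the clone (adjusted p = 2.9e-08). All 5 genes were at less than 10 CPM in every library.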
